A study of Rattus norvegicus with 32 samples.

Results

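The neurotrophins Bdnf and Ntf3, the neurotrophin receptors Ntrk2, Ntrk3 and Ngfr, and the neurotrophin-related genes Nrn1, Nrn1l and Vgf were followed through 32 rat brain RNA-seq samples. The genes were chosen by name, and 7 of the 8 were matched among the 28914 gene names in the count files. Nrn1l was not analysed here. The samples came from adult male Sprague-Dawley rats and from 4 brain regions, the nucleus accumbens (NAc), the dentate gyrus (DG), the cornu ammonis of the hippocampus (CA) and the subventricular zone (SVZ). METH rats received methamphetamine at 10 mg/kg in 4 intraperitoneal injections 2 h apart, control rats received saline (Sal) on the same schedule, and brains were collected 24 h after the final dose. Each region had 4 Sal and 4 METH samples, so 16 samples of each treatment, and a sample is called by its region, its treatment and its number. The NAc and SVZ were taken with a 1 mm puncher and the DG and CA were scooped out, so every sample is a mixture of cell types, and the RNA was total RNA after removal of ribosomal RNA. Expression is given in CPM, the usual depth-scaled read count, relative here to upper-quartile library sizes.

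Neurotrophins are secreted growth factors that keep neurons alive, guide the growth of axons and dendrites and tune synapses. BDNF, the product of Bdnf, acts through the receptor tyrosine kinase TrkB (Ntrk2), and neurotrophin-3 (Ntf3) acts mainly through TrkC (Ntrk3). The p75 receptor (Ngfr) binds all neurotrophins and their uncleaved precursors and is strongly expressed by cholinergic neurons of the basal forebrain. Neuritin (Nrn1) is a small membrane-anchored protein, and VGF is a neuropeptide precursor. Both genes are known to be induced by neuronal activity and by neurotrophins, and in the adult hippocampus Bdnf itself is a gene of excitatory neurons that activity switches on.

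The activity-dependent control of Bdnf and Vgf is known to use the cAMP response element, so their promoters are shown. Each sequence is the 120 bases before a transcription start in RefSeq (assembly GRCr8, not the rn6 build of the count files), with capitals marking the element: its full form TGACGTCA in Vgf and its half-form CGTCA in 1 of the 6 Bdnf start sites in the table. The Vgf bases lie at chr12:25277021-25277140 on the minus strand and the Bdnf bases at chr3:116637738-116637857 on the plus strand.
Vgf: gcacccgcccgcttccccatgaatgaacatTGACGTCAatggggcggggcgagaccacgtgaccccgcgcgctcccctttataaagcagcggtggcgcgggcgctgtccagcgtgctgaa
Bdnf: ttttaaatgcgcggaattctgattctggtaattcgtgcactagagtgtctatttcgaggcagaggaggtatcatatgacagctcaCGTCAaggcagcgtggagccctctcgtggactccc
The full element starts 90 bases before the Vgf start and the half-element 35 bases before the Bdnf start. On both strands, 1.18% of all 33469 promoters in the table held the 8 letters in these 120 bases and 11.5% held the 5 letters, which also lie within the 8. A match of letters is a description and does not show that a factor bound there. The 3 Ntf3 start sites in the table held neither form in this window. The levels of these 2 genes did not follow a common pattern across the regions.

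Several samples stood apart from their labels by their marker genes, and they were singled out after those genes had been seen. The sample DG Sal 3 had 542 CPM of Ppp1r1b, a marker of striatal medium spiny neurons, and 3.88 CPM of Slc17a7, the transporter of forebrain excitatory neurons, while the other 7 DG samples had at least 1103 CPM of Slc17a7. The samples SVZ Sal 1, SVZ METH 2 and SVZ METH 4 had 937, 805 and 597 CPM of Prkcd, a thalamic gene, against at most 205 CPM in the other 5 SVZ samples. NAc METH 3 had 41.7 CPM of Ppp1r1b against at least 479 CPM in the other NAc samples. The 4 of 5 hippocampal pyramidal markers in the files summed to 103 to 300 CPM in the CA, 22.4 to 325 CPM in the DG, 24.9 to 170 CPM in the SVZ and 9.88 to 30.6 CPM in the NAc, but 2 of them, Spink8 and Fibcd1, had at most 5 reads and 1 read in any of the 32 samples. The 4 dentate granule markers summed to 46.1 to 398 CPM in the CA and 28.2 to 415 CPM in the DG, so the ranges of the CA and DG overlapped for both lists. The numbers in the file headers were crossed for 4 samples: DG Sal 1 and 2 carried the numbers 20 and 21, which belong to METH samples in the NAc and CA, and DG METH 1 and 2 carried 14 and 15, which belong to Sal samples there. SVZ METH 1 and 2 shared the number 1669 and SVZ METH 3 and 4 the number 1670. Samples were also grouped by wording in their header names, and these groups are called run A to run D here. All SVZ samples were in run D and no sample of another region was. Differences between the SVZ and other regions therefore cannot be told apart from the run. Total counts were 11094002 to 21869773 per sample, where 1 read is worth 0.0460 to 0.0940 CPM.

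Per kilobase of exon, TrkB and neuritin mRNA stood highest and Ntf3 and Ngfr lowest. Over the 32 samples the median level was 81.9 CPM per kb for Ntrk2, 65.3 for Nrn1, 35.4 for Ntrk3, 20.7 for Vgf, 1.87 for Bdnf, 1.18 for Ntf3 and 0.433 for Ngfr. The ranges overlapped between neighbours in this order. Ntrk2 varied least, with a highest sample 1.95 times the lowest, and Ntrk3 and Vgf varied 5.34-fold and 6.48-fold. Nrn1 varied 39.5-fold, Bdnf 91.6-fold and Ngfr 310-fold, while Ntf3 had 0 reads in 3 samples. The genes lie at chr3:100768637-100819210 (Bdnf), chr4:158636884-158705886 (Ntf3), chr17:5933729-6244676 (Ntrk2), chr1:139890560-140262503 (Ntrk3), chr10:83389847-83408061 (Ngfr), chr17:27925057-27969433 (Nrn1) and chr12:22677607-22680630 (Vgf) in rn6, and none of their exons overlapped an exon of another gene in the files.

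**Figure D1:**
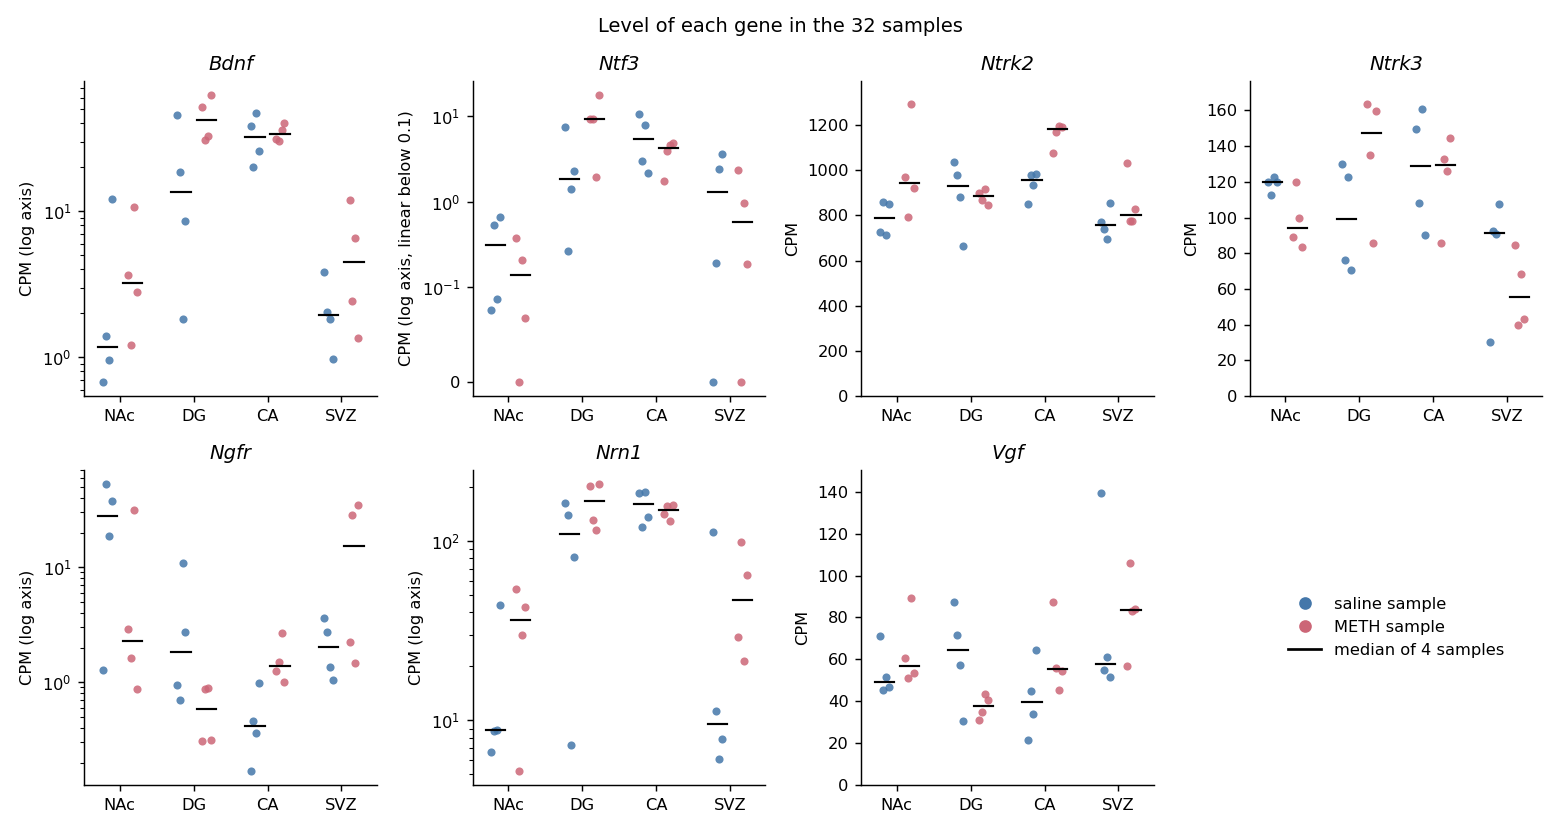
CPM of each gene (vertical axes, log scale for Bdnf, Ntf3, Ngfr and Nrn1, with the Ntf3 axis linear below 0.1) in every sample of the 4 regions, with saline samples in blue, METH samples in red and the median of 4 samples as a line. Bdnf, Ntf3 and Nrn1 stand above every NAc sample in the CA and in most DG samples. The exceptions are DG Sal 3 for Bdnf (1.84 CPM) and Nrn1, DG Sal 4 for Bdnf and DG Sal 2 for Ntf3. Ngfr reaches its highest levels in the NAc and in 2 METH samples of the SVZ.

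Bdnf was far higher in the hippocampal regions than in the NAc and SVZ. Its levels in the CA were 38.3, 20.0, 47.0 and 26.0 CPM in Sal 1 to 4 and 31.4, 30.4, 36.3 and 40.5 CPM in METH 1 to 4. In the DG they were 45.7, 18.4, 1.84 and 8.63 CPM in Sal 1 to 4 and 52.0, 30.8, 33.0 and 62.1 CPM in METH 1 to 4. All 8 CA samples and 6 of the 8 DG samples were above every NAc and SVZ sample, and the exceptions were DG Sal 3 and DG Sal 4. In the NAc the Sal samples had 0.679, 1.40, 0.958 and 12.0 CPM and the METH samples 3.67, 1.2, 10.7 and 2.81 CPM. In the SVZ the Sal samples had 3.82, 2.04, 1.83 and 0.980 CPM and the METH samples 11.9, 2.43, 6.57 and 1.36 CPM. Ranges of the NAc and SVZ overlapped almost wholly.

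Ntf3 had a like order at a lower level. The CA held 1.76 to 10.7 CPM (median 4.23) and the DG 0.262 to 17.5 CPM (median 4.87). The NAc held 0 to 0.660 CPM (median 0.148), at most 9 reads, and the SVZ 0 to 3.57 CPM (median 0.578). Every CA sample and every DG sample but DG Sal 2 lay above all 8 NAc samples. Within the DG the 3 highest samples were METH 4 with 17.5, METH 1 with 9.28 and METH 2 with 9.17 CPM.

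Neuritin followed the same regional order with a larger spread in the SVZ. Nrn1 was 120 to 186 CPM in the CA (median 149), and 6 of the 8 DG samples were between 115.4 and 207 CPM. DG Sal 3 had 7.31 and DG Sal 4 had 80.9 CPM. NAc samples fell into low values of 5.25 to 8.89 CPM (Sal 1, 2 and 3 and METH 2) and higher values of 30.1 to 54.3 CPM (Sal 4 and METH 1, 3 and 4). In the SVZ the 3 samples with thalamic markers had 113, 98.7 and 64.9 CPM of Nrn1 (Sal 1, METH 2 and METH 4), and the other 5 had 6.12 to 29.1 CPM.

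Region differences were tested in saline samples, and with the fit of all 32 samples, as regions averaged over both treatments. A gene was called where edgeR's quasi-likelihood test gave an FDR under 0.01 and the fold change was above 2. In the 16 saline samples, 0 of 7 genes were called in any of the 4 comparisons of a region with the mean of the other 3, where 0% (NAc and DG), 0.264% (CA) and 0.0645% (SVZ) of all tested genes were called. Bdnf came nearest in the CA, with a log2 difference of 2.61 ± 0.64 (SE) and an FDR of 0.0316, and Ngfr in the CA had -3.68 ± 1.0 and an FDR of 0.0423. Of all tested genes, 7.19% had an FDR under 0.05 in that comparison. Without the sample NAc Sal 4, Bdnf in the CA was called, with 3.24 and an FDR of 0.00803. The lowest unadjusted p of all 15515 genes in the comparison of the saline NAc with the other regions belonged to Ngfr (log2 difference 4.10 ± 0.67, FDR 0.201), and without DG Sal 3 it was called, with 4.57 and an FDR of 0.00254. In the 6 pairs of saline regions 0 of 7 genes were called, where 0.0193% of all genes were for DG against SVZ, 0.812% for CA against SVZ and 0% for the other 4 pairs. Ngfr was 5.83 ± 1.13 higher in the NAc than in the CA (FDR 0.0298, with 5.1% of all genes under 0.05) and Bdnf 3.91 ± 0.97 higher in the CA than in the SVZ (FDR 0.0214, with 13.2% under 0.05), and both were called without DG Sal 3 (FDR 0.00542 and 0.00993). In the 16 METH samples alone, Bdnf and Ntf3 were called between the NAc and DG (3.1% of all genes), Bdnf, Ntrk3 and Vgf between the DG and SVZ (3.94%), and Bdnf between the CA and SVZ (3.91%).

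Averaged over both treatments, with 8 samples per region, Bdnf, Ntf3, Nrn1 and Ngfr were called between regions. This comparison was added after seeing the data. It counts the SVZ METH samples that share a library number as separate samples. The NAc had less Bdnf than the DG (log2 difference -2.78 ± 0.58, FDR 0.00225) and the CA (-3.01 ± 0.59, FDR 0.000542). It also had less Ntf3 than the DG (-4.42 ± 0.88, FDR 0.00146) and the CA (-4.30 ± 0.87, FDR 0.000811). Nrn1 was lower in the NAc than in the DG (-2.41 ± 0.60, FDR 0.00795) and the CA (-2.67 ± 0.61, FDR 0.00196), but its call against the DG was kept in only 17 of 32 fits that left out 1 sample. It was lost without any 1 of the NAc samples except Sal 4, of the DG samples except Sal 3 and METH 3, or of CA METH 2 and 4 (FDR up to 0.0216). Against the SVZ, whose samples were all in run D, Bdnf was higher in the DG (3.04 ± 0.58, FDR 0.000516) and the CA (3.27 ± 0.59, FDR 0.000128). These 2 Bdnf calls and those of Bdnf and Ntf3 against the NAc were kept in all 32 such fits. Thus 4 of 7 genes were called between the NAc and the DG, against 2.88% of all tested genes, and 4 of 7 between the NAc and the CA, against 5.14%. For the DG against the SVZ the count was 1 of 7 (4.31% of all genes) and for the CA against the SVZ it was 2 of 7 (9%), where the median of all genes lay at -0.10. No member was called between the NAc and SVZ (1.33% of all genes) or between the DG and CA. At an FDR under 0.05 and any fold, 1 of 7 members passed for NAc against SVZ, 5 for DG against SVZ and 7 for CA against SVZ, beside 17.4%, 27.9% and 43.1% of all genes. In the comparison of DG and CA, 0% of 16122 genes passed, and 1 member, Ntrk2, was among the 8.02% with an unadjusted p under 0.05.

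**Figure D2:**
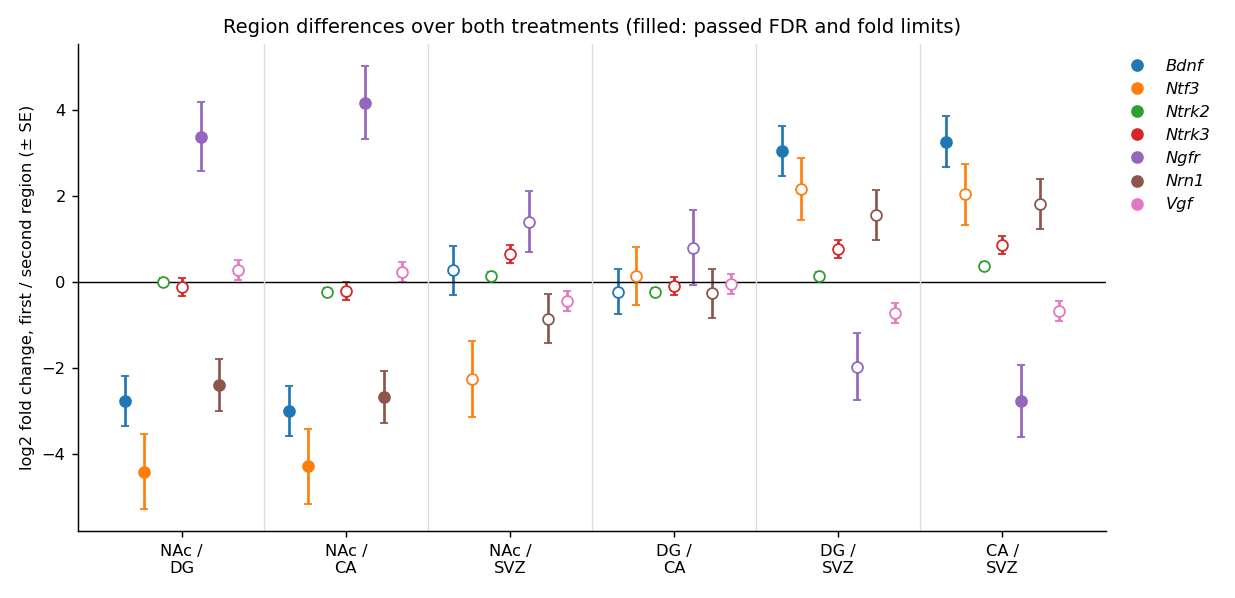
Log2 fold change (± SE, vertical axis) of each gene for each pair of regions over both treatments, with 8 samples per region. Filled points passed an FDR of 0.01 and a 2-fold change: 4 genes in each comparison of the NAc with a hippocampal region, Bdnf alone for DG against SVZ, and Bdnf and Ngfr for CA against SVZ.

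Without the 5 samples that stood apart (DG Sal 3, NAc METH 3, SVZ Sal 1, SVZ METH 2 and SVZ METH 4), the calls of Bdnf, Ntf3, Nrn1 and Ngfr between the NAc and both hippocampal regions and of Bdnf against the SVZ were kept. Of all genes, 5.94% were then called for NAc against DG and 6.4% for NAc against CA. The shares were 7.26% for DG against SVZ and 9.12% for CA against SVZ. Nrn1 was then also higher in the DG than in the SVZ (3.31 ± 0.50, FDR 5.23e-05) and in the CA than in the SVZ (3.38 ± 0.50, FDR 2.86e-05), where all samples gave 1.55 ± 0.58 (FDR 0.0461) and 1.82 ± 0.58 (FDR 0.0142). Leaving out SVZ Sal 1 alone was enough for both (FDR 0.000976 and 0.000217), and leaving out DG Sal 3 for the second (FDR 0.00746). Leaving out SVZ METH 1 gave calls of Ntf3 in the DG (2.74, FDR 0.00903) and the CA (2.61, FDR 0.00775) against the SVZ. Without the 5 samples, the call of Ngfr between the CA and SVZ was lost (-1.01 ± 0.60, FDR 0.179). By region median, markers of forebrain excitatory neurons were also highest in the CA and DG. The sum of 4 markers (Slc17a7, Neurod2, Tbr1 and Emx1, all 4 in the files) was 1456 to 2356 CPM in the CA, 8.45 to 2129 CPM in the DG, 10.8 to 748 CPM in the NAc and 12.7 to 561 CPM in the SVZ. Within the NAc, the 3 samples with the most Slc17a7 (Sal 4 with 673, METH 1 with 482 and METH 4 with 459 CPM) were also the 3 with the most Nrn1. Bdnf did not follow in the same way in the NAc, since METH 1 and METH 4 had 3.67 and 2.81 CPM. In the SVZ the most Slc17a7, 479 CPM, was in METH 1, which also had the most Bdnf there. Its Nrn1 was below that of SVZ Sal 1, METH 2 and METH 4. Fewer cells of a type and less RNA per cell cannot be told apart in such samples, and the part of cell composition in the region differences was not tested.

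**Figure D3:**
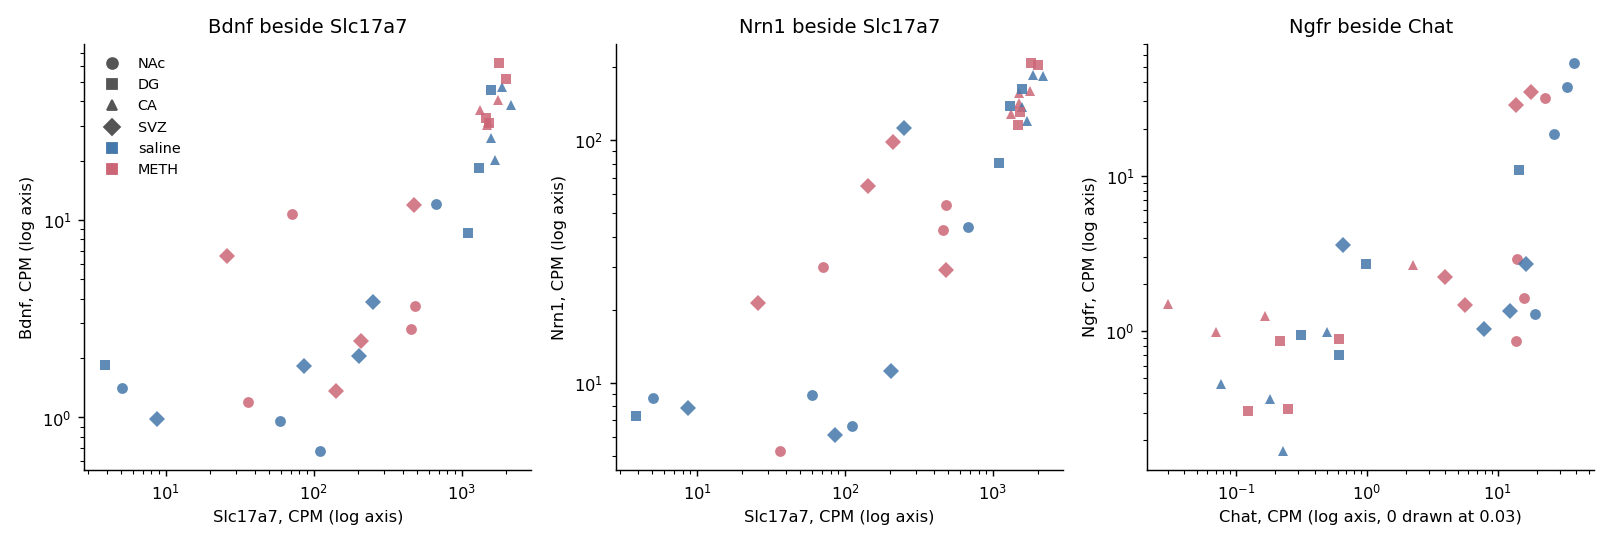
CPM of Bdnf and Nrn1 against Slc17a7, and of Ngfr against Chat (both axes log scale, a Chat level of 0 drawn at 0.03), with 1 point per sample, shapes for regions and blue for saline, red for METH. DG and CA samples stand at the highest Slc17a7, except DG Sal 3, and Ngfr ranges from 0.869 to 52.7 CPM among NAc samples with 13.8 to 38.5 CPM of Chat.

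The same library number occurred once in the NAc, once in the DG and once in the CA for 8 numbers, so samples with the same number may come from the same animal, which the labels do not state. Ntf3 was lower in the NAc than in the DG and than in the CA for 8 of 8 numbers. Bdnf was lower in the NAc than in the CA for 8 of 8 and than in the DG for 7 of 8. With the number as a block in the 24 samples, Bdnf kept its calls between the NAc and the DG (-3.04 ± 0.67, FDR 0.00639) and the CA (-3.32 ± 0.66, FDR 0.00166), and so did Ntf3 and Nrn1, where 2.93% and 5.23% of all genes were called. Ngfr was higher in the NAc than in the DG for 8 of 8 numbers, but its difference of 2.89 ± 0.77 had an FDR of 0.0169 with this block and was no longer called. The SVZ carries other numbers and could not be included.

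**Figure D4:**
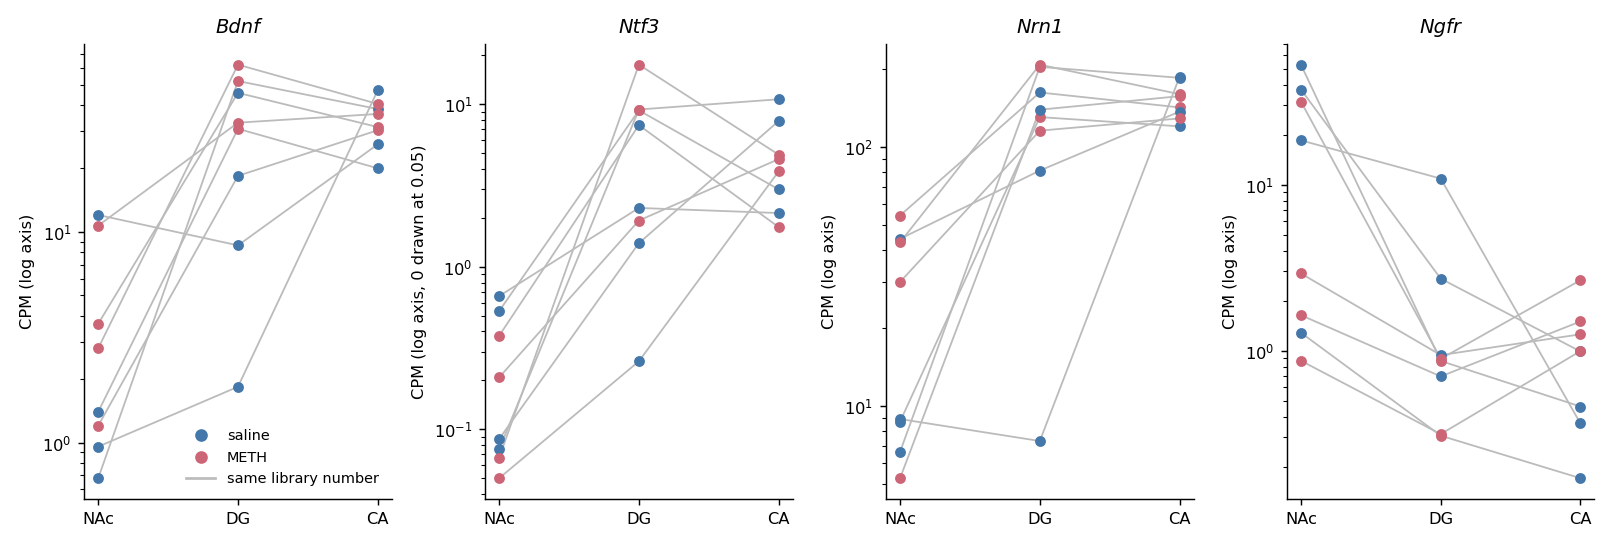
CPM (vertical axes, log scale) of Bdnf, Ntf3, Nrn1 and Ngfr in the NAc, DG and CA samples, with saline samples in blue, METH samples in red and grey lines joining samples that carry the same library number; a Ntf3 level of 0 is drawn at 0.05. All 8 lines rise from NAc to CA for Bdnf, Ntf3 and Nrn1, and 7 of 8 fall for Ngfr. Lines that join a blue and a red point are the numbers with crossed treatments.

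TrkB mRNA was abundant and even. Ntrk2 was 713 to 1291 CPM in the NAc, 663 to 1036 in the DG, 851 to 1193 in the CA and 694 to 1031 in the SVZ, so all 4 ranges overlapped. Over both treatments, Ntrk2 was higher in the CA than in the SVZ by 0.37 ± 0.09 on the log2 scale (FDR 0.00297), which is below the 2-fold limit. TrkC varied more, mainly in the SVZ. Ntrk3 was 30.6, 39.6 and 43.0 CPM in the 3 SVZ samples with thalamic markers and 68.4 to 108 CPM in the other 5. In the NAc it was 83.7 to 122, in the DG 70.7 to 163 and in the CA 85.5 to 161 CPM. Ntrk3 was lower in the SVZ than in the CA (CA against SVZ 0.86 ± 0.21, FDR 0.00222) and the DG (0.76 ± 0.21, FDR 0.00890), again under 2-fold. In the METH samples alone, the DG exceeded the SVZ by 1.2 ± 0.26 (FDR 0.00557), which was called. Over both treatments without the 5 samples that stood apart, the differences from the CA and the DG were 0.54 ± 0.18 (FDR 0.0213) and 0.38 ± 0.19 (FDR 0.122).

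The p75 receptor had the widest range of the 7 genes. In the NAc, Ngfr was 1.28, 52.7, 18.5 and 37.3 CPM in Sal 1 to 4 and 2.91, 1.64, 31.6 and 0.869 CPM in METH 1 to 4. In the SVZ it was 3.59, 2.71, 1.35 and 1.04 CPM in Sal 1 to 4 and 2.24, 28.3, 1.47 and 34.5 CPM in METH 1 to 4. The 2 high SVZ samples are also 2 of the 3 with thalamic markers. The DG had 0.307 to 2.71 CPM except for 10.9 CPM in DG Sal 3, and the CA had 0.170 to 2.66 CPM. Over both treatments, Ngfr was higher in the NAc than in the DG (3.38 ± 0.80, FDR 0.00558) and the CA (4.18 ± 0.85, FDR 0.000809), and lower in the CA than in the SVZ (-2.77 ± 0.83, FDR 0.00934). The first of these was kept in 24 of 32 fits that left out 1 sample (2.19 and FDR 0.0397 without NAc METH 3), the second in 32 and the third in 11. Besides NAc METH 3, the first was lost without NAc Sal 2 or any 1 of the DG samples except Sal 3 and METH 3. Where the third was lost its FDR was at most 0.0228, without SVZ METH 4. Markers of cholinergic neurons (Chat, Slc5a7 and Slc18a3) also had their highest sums in the NAc, with 51.0 to 162 CPM. The sums were 3.73 to 75.6 CPM in the SVZ, 1.26 to 59.8 in the DG and 2.06 to 9.0 in the CA. In the SVZ Sal samples the sum had a median of 36.4 CPM, yet Ngfr was at most 3.59 CPM there. Among the SVZ METH samples the highest sum, 75.6 CPM, was that of METH 4, the SVZ sample with the most Ngfr. The lowest, 19.4 CPM, was that of METH 1, with 2.24 CPM of Ngfr. Over all samples, the 4 highest sums were 162, 129, 105 and 92.8 CPM. They belonged to NAc Sal 2, Sal 4, Sal 3 and METH 3, the NAc samples with the most Ngfr. NAc Sal 1 had 80.4 CPM of these markers and 1.28 CPM of Ngfr. Their part in the Ngfr differences was not tested.

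Vgf passed the limits in no pair of regions in the saline samples or over both treatments. It was 45.1 to 89.3 CPM in the NAc, 30.7 to 87.5 in the DG, 21.5 to 87.4 in the CA and 51.8 to 139 in the SVZ, and the highest 2 values, 139 and 106 CPM, were those of SVZ Sal 1 and SVZ METH 2. Over both treatments the DG had less than the SVZ by a log2 difference of -0.73 ± 0.23 (FDR 0.0222), which did not pass the limits. In the METH samples alone this difference was -1.14 ± 0.23 (FDR 0.00428) and was called.

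METH was then compared with saline within each region. None of the members passed, and neither did any other gene: 0 of 6 members and 0% of 14771 genes were called in the NAc, 0 of 7 and 0% of 14800 in the DG, 0 of 7 and 0% of 14612 in the CA, and 0 of 7 and 0% of 15579 in the SVZ. Ntf3, with at most 9 reads per sample, was not tested in the NAc. At an unadjusted p under 0.05, the members counted 0 in the NAc, 2 in the DG, 2 in the CA and 1 in the SVZ, where 3.39%, 12.8%, 7.16% and 2.58% of all genes had one. With DESeq2, 0 members were called in each region.

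**Figure D5:**
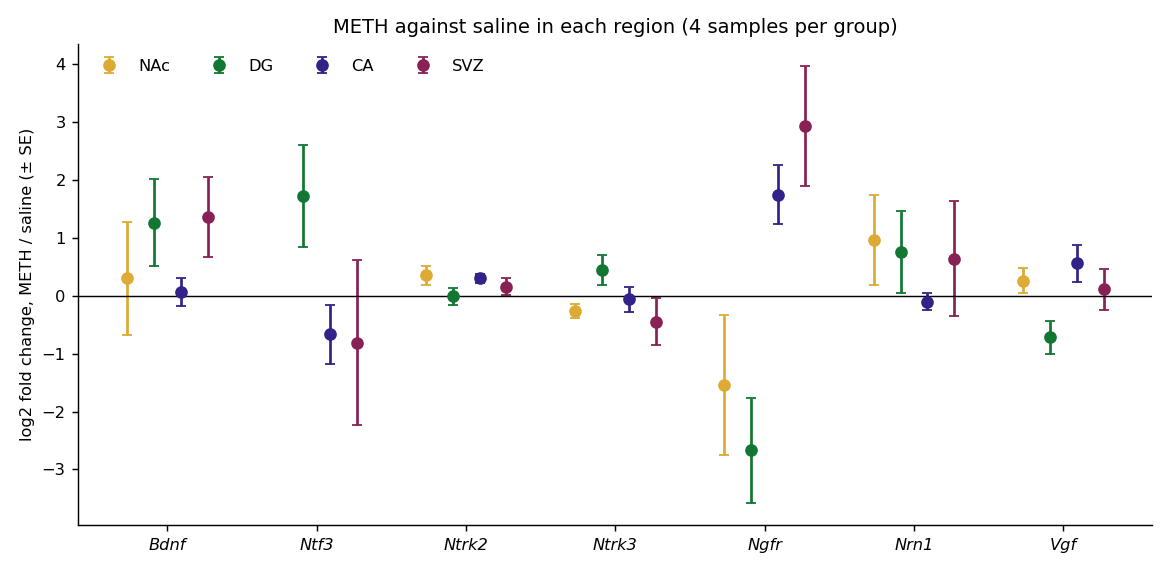
Log2 fold change of METH against saline (± SE, vertical axis) for each gene and region, with 4 samples per group; Ntf3 has no value in the NAc. Ngfr has the widest spread of values, from -2.67 in the DG to 2.93 in the SVZ, and no point passed the FDR limit.

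In the CA, Ntrk2 was 851, 980, 933 and 981 CPM in Sal 1 to 4 and 1074, 1170, 1193 and 1191 CPM in METH 1 to 4. All METH samples were above all Sal samples. The log2 difference was 0.30 ± 0.08, with an unadjusted p of 0.00372 by edgeR's quasi-likelihood test and an FDR of 0.669. Ngfr in the CA was 0.170, 0.461, 0.364 and 0.988 CPM in Sal 1 to 4 and 1.25, 1.5, 2.66 and 0.994 CPM in METH 1 to 4, which are 3 to 12 reads against 14 to 41 reads. The groups did not overlap here either, with a log2 difference of 1.75 ± 0.51 and an FDR of 0.669. Of all tested genes, 2.57% had every METH sample above every Sal sample in the CA, so 2 of 7 members stand beside that share. Within the groups of header names called runs here, Ntrk2 differed by 0.19 in run B (2 METH samples and 1 Sal sample) and by 0.35 in run C (2 and 1). In the same runs Ngfr differed by 0.48 and 2.33. The headers of CA Sal 1 and 2 held the word merged, and these samples were in neither run. The sum of the 4 astrocyte markers was 1527 to 2012 CPM in Sal and 1735 to 2259 CPM in METH samples, and that of the 3 cholinergic markers 2.06 to 4.45 and 2.84 to 9.0 CPM, highest in METH 3, the sample with the most Ngfr. Their part in these differences was not tested. The neurotrophins themselves gave 0.07 ± 0.24 for Bdnf and -0.66 ± 0.51 for Ntf3 in the CA.

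In the DG the METH samples had more Bdnf on average, 44.5 ± 15.1 CPM (SD, n = 4), than the Sal samples, 18.6 ± 19.3 CPM, and the groups overlapped through DG Sal 1. The log2 difference was 1.26 ± 0.75 (FDR 0.544). Ntf3 differed by 1.73 ± 0.88 (FDR 0.462), Nrn1 by 0.76 ± 0.71 (FDR 0.734) and Ngfr by -2.67 ± 0.91 (FDR 0.287). Without DG Sal 3, the sample with striatal markers, the differences were 0.88 ± 0.53 for Bdnf, 1.49 ± 0.97 for Ntf3, 0.37 ± 0.30 for Nrn1 and -1.27 ± 0.62 for Ngfr. Without DG Sal 1, the Sal sample with the most Bdnf, Ntf3 and Nrn1, they were instead 2.22 for Bdnf, 2.82 for Ntf3 and 1.12 for Nrn1. Without the 4 samples with crossed numbers, only DG Sal 3 and 4 and METH 3 and 4 were left. The differences were then 3.19 ± 0.86 for Bdnf and -3.46 ± 0.96 for Ngfr, both with an FDR of 0.731. For Ntf3 and Nrn1 they were 2.39 ± 1.16 and 1.87 ± 1.17 (FDR 0.739 and 0.778). These values still rest on DG Sal 3, which had 1.84 CPM of Bdnf and 10.9 CPM of Ngfr. Vgf was 87.5, 71.6, 57.3 and 30.7 CPM in Sal 1 to 4 and 31.0, 34.7, 43.6 and 40.5 CPM in METH 1 to 4. Its log2 difference was -0.72 ± 0.28 (FDR 0.350), and -0.07 ± 0.34 without the crossed samples. The sum of the 4 hippocampal pyramidal markers in the files was 22.4 to 145 CPM in Sal and 157 to 325 CPM in METH samples. Of these markers, Spink8 and Fibcd1 had at most 5 reads and 1 read in any sample. The ranges include DG Sal 3 and the samples with crossed numbers. The sum of the 4 dentate granule markers was 28.2 to 201 CPM in Sal and 73.2 to 415 CPM in METH samples. DG METH 1 and 2 were in run A and METH 3 and 4 in run C, while Sal 1, 2 and 4 were in run B. Only Sal 3 shared a run with METH samples, so treatment and run can hardly be told apart in the DG. The part of the run or of either marker sum in these values was not tested.

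In the SVZ, Bdnf differed by 1.36 ± 0.70 (FDR 0.979) and Ngfr by 2.93 ± 1.04 (FDR 0.979). Without METH 1, the SVZ sample with the most Bdnf, the Bdnf difference was 0.67. Without METH 2, METH 4 and Sal 1, the Ngfr difference was 0.12 ± 0.51, with 2 METH and 3 Sal samples left. The sum of the 5 thalamic markers was 86.2 to 1826 CPM in Sal and 139 to 1646 CPM in METH samples. Without the 3 samples, Bdnf differed by 2.51 ± 0.41 and Nrn1 by 1.59 ± 0.29, both with an FDR of 0.610. With the METH libraries of the same number summed, Ngfr differed by 2.91 ± 0.48 and Bdnf by 1.33 ± 0.52, both with an FDR that rounded to 1.

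In the NAc, Ntrk2 differed by 0.35 ± 0.16 and Ntrk3 by -0.26 ± 0.12, with unadjusted p values of 0.0603 and 0.0524 by edgeR and an FDR of 0.999. Ngfr was -1.54 ± 1.21 with all samples and -3.96 ± 1.09 (FDR 0.944) without NAc METH 3. The cholinergic markers summed to 80.4 to 162 CPM in the Sal samples and 51.0 to 92.8 CPM in the METH samples. In run B, with 2 samples of each group, Ngfr differed by -3.62 and Bdnf by -1.41, opposite in sign to the 0.30 ± 0.98 of Bdnf over all samples.

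Whether the METH effect differed between regions was tested in the fit of 32 samples. No member passed an FDR of 0.01, where 0% of 16122 genes did. Ngfr had the lowest unadjusted p of the 7 genes, 0.00421 (FDR 0.358), and was 1 of 7 members with an unadjusted p under 0.05, beside 7.74% of all genes. With DESeq2 the FDR of Ngfr was 0.0402, and the share of all genes under 0.05 with DESeq2 is not given here. Its METH effect in the DG was lower than in the SVZ by a log2 difference of -5.60 ± 1.6 (FDR 0.307) and lower than in the CA by -4.43 ± 1.75 (FDR 0.259). In the NAc it was lower than in the SVZ by -4.49 ± 1.47, with an FDR that rounded to 1. Without the 5 samples that stood apart the FDR of the interaction was 0.189. Averaged over the 4 regions, the METH effect was 0.20 ± 0.07 for Ntrk2 (unadjusted p 0.00621 by edgeR, FDR 0.516) and 0.74 ± 0.39 for Bdnf (FDR 0.666). Ntrk2 was the 1 of 7 members with an unadjusted p under 0.05, beside 7.83% of all genes. The other 5 lay between -0.21 and 0.56.

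Other genes of the pathway were read from a list of 14 ligands, receptors and processing genes and a list of 42 genes of Trk signalling, of which 13 and 41 were in the files, and 12 and 40 were tested in each comparison. None was called between METH and saline in any region. The lowest unadjusted p by edgeR in the NAc list of ligands and receptors was that of Slitrk5, a membrane protein that binds TrkB, with -0.26 ± 0.12 (p 0.0536, FDR 0.999). In the DG it was Pcsk1, a protease that cleaves prohormones, with 0.77 ± 0.31 (FDR 0.349). The median METH effect of the ligand and receptor list was -0.07 in the NAc, 0.08 in the DG, 0.03 in the CA and -0.11 in the SVZ, beside medians of all genes of 0.03, -0.01, 0.01 and 0.02.

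Between regions over both treatments, 2 to 3 of the 12 ligand, receptor and processing genes were called wherever the NAc was compared with a hippocampal region or a hippocampal region with the SVZ, and none in the other 2 pairs. The counts were 2 of 12 for NAc against DG (2.88% of all genes), 2 for NAc against CA (5.14%), 2 for DG against SVZ (4.31%) and 3 for CA against SVZ (9%). Lingo1, a partner of p75 in growth inhibition, was lower in the NAc than in the DG (-1.13) and the CA (-1.56) and higher in the DG (1.06) and CA (1.49) than in the SVZ. Sorcs1, a sorting receptor, was higher in the NAc than in the DG (1.22 ± 0.25) and the CA (1.28 ± 0.25). Pcsk1 was higher in the DG (1.5 ± 0.31) and CA (1.65 ± 0.31) than in the SVZ, and Slitrk5 in the CA than in the SVZ (1.03 ± 0.18). In the Trk signalling list, 0 of 40 genes were called in 5 of the 6 pairs of regions, where 0% to 5.14% of all genes were, and 1 of 40, the adaptor Gab1, was lower in the CA than in the SVZ (-1.0 ± 0.25), where 9% were. The calls in all pairs of regions share samples, since each region enters 3 pairs.

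The genes whose log2(CPM + 1) over the 32 samples was most like that of each member were given as a description, among 16115 genes compared, by Pearson r. For Bdnf they were Bhlhe22 (0.946), Map4k3 (0.943) and Chrd (0.935), and for Nrn1 the unnamed gene AABR07027407.1 (0.994), Rtn4r (0.976) and Olfm1 (0.972). For Ntf3 they were Slc2a9 (0.935), Piezo2 (0.922) and Arpc5 (0.910), and for Ntrk3 Gabra2 (0.934), Chl1 (0.917) and Abhd17c (0.915). Ngfr was most like Nap1l5 (0.847), Minar1 (0.846) and Shh (0.844), Vgf like Kcnj12 (0.833), Nt5c3b (0.797) and Opn3 (0.796), and Ntrk2 like Tubb2b (0.786), Cmip (0.778) and Izumo4 (0.764). All these values share the libraries and the region differences, so that a gene can score high by being high in the same regions.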

How the data were processed

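Total RNA of 32 samples was sequenced after ribosomal RNA depletion. Per the submitters' notes, the authors trimmed reads with Cutadapt 2.7, checked them with FastQC 0.11.4, aligned them to rn6 with STAR 2.5.2b and counted them with featureCounts 1.6.3. Per the file headers, the deposited read counts per gene were made from read pairs with a mapping quality of at least 10, without using strand, on Ensembl release 95. A second deposited count matrix with 14712 genes was used as an alternative.

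Counts were tested with edgeR 4.0.16 (R 4.3.3) by the quasi-likelihood test with upper-quartile factors and filterByExpr, within each region for METH, over the 16 saline samples for regions, and over all 32 samples for the interaction. FDR is the Benjamini-Hochberg adjusted p over all tested genes, SE is the absolute log2 fold change over the square root of F, and a gene was called at an FDR under 0.01 and above 2-fold (interaction: FDR under 0.01). Tested on simulated data, 189, 199, 189 and 191 of 200 genes changed 4-fold were recovered for METH in the NAc, DG, CA and SVZ. The simulation gave every gene the same dispersion, below the common dispersion of the data in the NAc, DG and SVZ. Recovery of more variable genes, such as Ngfr, was not tested. The study's method of removing unwanted variation (RUVr) was run as an alternative, as were TMM, DESeq2 1.42.0, no filter on low counts, leaving out samples, and a replicate block.

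The 8 genes, the pathway lists and the marker lists were chosen with earlier results of these data known. A few listed genes are not reported here and were left out of the lists' counts, medians and sums. Of the lists, only called genes, or where none was called those with the lowest unadjusted p in a direction, are named. Likeness was ranked by Pearson r, and 3 genes per member are named. No pair of samples within a group agreed within sampling noise. The sources do not state that replicates of a group were separate animals for every library, so p-values measure the spread between these samples. Total counts had a median of 14533166.5 per sample. Replicate numbers did not pair saline with METH samples (1 to 3 of 4 correlations over 0.1 in each region), but all 4 were over 0.1 for saline NAc with CA (0.119 to 0.243).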

Additional observations from a re-analysis of the deposited data

Results flagged for a closer look

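In each group of 4 samples the highest and lowest level of each of the 7 genes were compared with the nearest of the others by Dixon's ratio. Of 56 groups, 5 held a sample past the limit, and chance gives about 1 in 20. NAc Sal 4 had 12.0 CPM of Bdnf, where the other NAc Sal samples had 0.679 to 1.40 CPM, and 44.1 CPM of Nrn1, where the others had 6.63 to 8.89 CPM. The same sample had the most Slc17a7 of the NAc, 673 CPM. NAc METH 3 had 31.6 CPM of Ngfr, where the other NAc METH samples had 0.869 to 2.91 CPM. SVZ Sal 1, with 937 CPM of the thalamic gene Prkcd, had 112.8 CPM of Nrn1, where the other SVZ Sal samples had 6.12 to 11.2 CPM, and 139.4 CPM of Vgf, where the others had 51.8 to 60.9 CPM. The part of the tissue taken in these values was not tested.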

How the results depend on the processing

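The counts of members called between METH and saline stayed at 0 in each region and for the interaction and the mean effect under every alternative run, except that at an FDR under 0.05 with 2 RUVr factors Ngfr (-1.94 ± 0.34) and Nrn1 (1.37 ± 0.24) in the DG both had 0.0449, and that the interaction of Ngfr had 0.0402 with DESeq2. The shares of all genes under an FDR of 0.05 in these settings are not given here. Whether the members exceed them was not compared, so these values are not read as a result about the members. No CA sample was among the 5 that stood apart, so the METH comparison in the CA could not be repeated without such samples. The sparse reads of Ntf3 in the NAc and of Ngfr in the CA limit their precision, and intervals of the METH effects are wide for Bdnf, Ntf3, Nrn1 and Ngfr. Shares in parentheses are those of all genes fitted under the same setting. In the saline NAc the count was 1 with DESeq2 (0.128%) and 1 without the 5 samples that stood apart (0.744%), in the saline SVZ likewise 1 and 1 (0.940% and 2.05%), and in the saline CA 2 with DESeq2 (2.02%), 2 at an FDR under 0.05 (7.19%) and 1 without the 5 samples (1.61%). The saline DG gave 2 when METH samples were used instead (1.61%). Over the 6 pairs of saline regions the count was 2 at an FDR under 0.05 (3.08%), 5 with DESeq2 (1.05%), 6 in METH samples (2.04%) and 5 without the 5 samples (1.89%). Over both treatments, an FDR under 0.05 at any fold gave 1 for NAc against SVZ (17.4%), 5 for DG against SVZ (27.9%) and 7 for CA against SVZ (43.1%). Without the 5 samples DG against SVZ gave 2 (7.26%), and CA against SVZ gave 1 with TMM (8.73%) and 1 without the filter on low counts (5.87%). The cause of these changes was not tested.

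With the replicate number as a block, which the labels do not tie to animals, CA against SVZ gave 3 members in place of 2 (8.47% of all genes). No count of members moved by more than 1.5 times with this block. Leaving out 1 sample at a time, the count ranged from 0 to 1 for the saline NAc and the saline CA, from 2 to 4 for NAc against DG, from 1 to 2 for DG against SVZ, from 1 to 3 for CA against SVZ, and from 0 to 2 over the pairs of saline regions.

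Directions that turned were those of log2 values that were not called with all samples. Without the 5 samples, METH in the NAc gave -0.55 for Bdnf, the saline NAc 0.0297 for Vgf, the saline DG -0.95 for Ngfr, the saline SVZ 0.0889 for Ntf3, the mean METH effect -0.84 for Ngfr, and NAc against SVZ -0.32 for Bdnf and 0.73 for Nrn1. For METH in the DG, Ntrk2 gave 0.0049 and 0.011 with 1 and 2 RUVr factors, 0.0084 with the replicate block and 0.19 without the crossed samples. In METH samples the NAc gave 0.059 for Ntrk2, -0.019 for Ntrk3 and 0.15 for Vgf, the DG -0.17 for Ntrk2, 0.61 for Ntrk3, -3.38 for Ngfr and -0.87 for Vgf, the CA 0.057 for Vgf and the SVZ 2.99 for Ngfr. Pooling the other regions gave -1.37 for Ngfr in the saline DG. The replicate block gave -0.0071 for the mean METH effect on Ngfr and -0.031 for Ntf3 in DG against CA, where the library number block gave -0.094.

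Leaving out 1 sample at a time turned these: for METH, Bdnf in the NAc (-0.55 to 2.18) and CA (-0.10 to 0.29), Ntrk2 in the DG (-0.12 to 0.068), Ntrk3 in the CA (-0.19 to 0.080), and Ntf3 (-1.96 to 0.013) and Vgf (-0.039 to 0.56) in the SVZ. For saline regions, they were Vgf in the NAc (-0.28 to 0.040), Ntf3 (-0.15 to 1.32), Ntrk3 (-0.25 to 0.039), Ngfr (-1.07 to 0.68) and Vgf (-0.057 to 0.38) in the DG, and Ntf3 in the SVZ (-1.07 to 0.17). For the mean METH effect they were Ntf3 (-0.50 to 0.062), Ngfr (-0.49 to 0.46) and Vgf (-0.0092 to 0.16). Over both treatments they were Ntrk2 in NAc against DG (-0.079 to 0.043), Bdnf (-0.67 to 0.61) and Nrn1 (-1.39 to 0.16) in NAc against SVZ, and Ntf3 (-0.42 to 0.35) and Vgf (-0.17 to 0.092) in DG against CA.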
